A study of Mus musculus with 27 samples.

Results

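T cell receptor gene segments are the V, D and J pieces, with their constant genes, from which the receptor of a T cell is joined. Members were all genes whose symbol starts with one of 12 prefixes, namely Trav, Traj, Trac, Trbv, Trbj, Trbc, Trbd, Trdv, Trdc, Trgv, Trgj and Trgc. The rule found 220 of the 35275 genes measured, in 10 of the 12 prefixes, and no symbol in the tables starts with Trdc or Trgc. Of the 220 segments, 165 had at least 1 read, 55 had none in any library and 61 had a read in all 27 libraries.

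The RNA of P14 CD8 T cells was sequenced in 9 groups, made of 3 genotypes at 3 stages with 3 biological replicates each. All groups carried the P14 transgenic receptor and came from young adult mice of both sexes. The study's methods place the lin28Tg and let-7Tg mice on a Rag2-/- background and do not state it for the WT mice of these libraries. The genotypes were WT P14+, lin28Tg (named Lin28bTg in the labels) and let-7Tg, whose let-7 transgene is induced by doxycycline and was inserted in the Col1a1 locus. The stages were naive cells at 0 h, cells activated for 12 h with anti-CD3 at 2 µg/ml and anti-CD28 at 5 µg/ml, and day 5 CTLs. The CTLs were raised with irradiated splenocytes, soluble anti-CD3 at 2 µg/ml and IL-2 at 100 U/ml. Per the labels, the medium of all genotypes held doxycycline at 2 µg/ml at 12 h and at day 5, and naive cells had no treatment. The study's methods also give doxycycline in the drinking water of experimental and control mice beforehand, unless stated otherwise. The tissue is labelled lymph nodes, while the protocol takes cells from lymph nodes and spleens, and day 5 CTLs therefore differ from naive cells in culture, stimulus and added splenocytes at once. Libraries held 13862706 to 23591069 counted reads, of which 0.0975% to 0.354% fell on the segments. Lin28b stood at 9.94 to 67.9 FPKM in the 9 lin28Tg libraries and at most at 0.0590 FPKM in the other 18.

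In developing T cells, the Rag1 and Rag2 proteins cut at signals beside the segments and join a V to a J segment for the alpha chain, and V, D and J segments for the beta chain. Terminal transferase, encoded by Dntt, adds bases at the joints. The joined V exon is spliced to a constant exon, Trac for the alpha chain and Trbc1 or Trbc2 for the beta chain, and the chains are displayed with the CD3 proteins. J and constant regions that have not recombined are also known to be transcribed, as germline transcripts. The P14 receptor recognises the gp33 peptide of LCMV and is made of a V alpha of the Trav14 family and a V beta encoded by Trbv13-3, so that reads on other V segments do not come from it.

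The sequences below show how short and how alike these features are, which bears on every value that follows. They are the transcripts of GENCODE M21 on GRCm38, written 5′ to 3′ on the plus strand. The ends of the P14 V segments are compared with those of their most read relatives, the last 120 bases of each, with the bases that differ in the pair in capitals. Trav14-1 (chr14:53554022-53554558) and Trav14d-1 (chr14:52855614-52856166) differed at 3 of these bases and at 11 of the last 270, whereas Trbv13-3 (chr6:41130147-41130585) and Trbv13-2 (chr6:41121396-41121832) differed at 11 of 120 and 24 of 270.
Trav14-1: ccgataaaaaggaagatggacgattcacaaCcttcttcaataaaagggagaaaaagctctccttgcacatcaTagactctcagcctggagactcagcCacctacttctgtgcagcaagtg
Trav14d-1: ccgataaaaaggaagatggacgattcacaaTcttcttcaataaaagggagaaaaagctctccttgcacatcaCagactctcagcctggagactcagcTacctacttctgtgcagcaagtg
Trbv13-3: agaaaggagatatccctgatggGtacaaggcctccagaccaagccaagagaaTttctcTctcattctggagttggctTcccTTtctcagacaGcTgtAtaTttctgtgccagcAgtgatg
Trbv13-2: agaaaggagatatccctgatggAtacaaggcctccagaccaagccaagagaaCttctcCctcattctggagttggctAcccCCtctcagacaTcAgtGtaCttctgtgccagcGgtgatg
The relatives of Trav14-1 in its family, Trav14d-1 included, were 95.8% to 97.5% identical to Trav14-1 over 120 bases, so reads could be split among the copies or left uncounted, and each copy's own level is uncertain.

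The D and J segments are shorter than a sequencing read. Functional J segments carry the codons for phenylalanine, glycine, any residue and glycine, which were searched in the reading frame as TTTGG or TTCGG followed 4 bases later by GG and are shown in capitals. The motif was found in 11 of the 14 Trbj segments (78.6%) and 41 of the 60 Traj segments (68.3%) of the annotation, and on the reverse strand in 0. The D segment with nearly all D reads is shown with the other one, followed by the 3 most read Trbj segments, 2 of the least read ones chosen after their values were seen, and a pseudogene. The Traj segments shown are the most read one, 2 whose level is described below, and Traj7 and Traj61, without the motif in this window.
Trbd1: gggacagggggc
Trbd2: gggactgggggggc
Trbj1-3: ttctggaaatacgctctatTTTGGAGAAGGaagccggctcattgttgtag
Trbj1-4: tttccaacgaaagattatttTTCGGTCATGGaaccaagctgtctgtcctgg
Trbj1-5: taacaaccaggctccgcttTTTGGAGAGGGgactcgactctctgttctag
Trbj2-4: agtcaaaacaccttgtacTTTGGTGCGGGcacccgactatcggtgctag
Trbj2-5: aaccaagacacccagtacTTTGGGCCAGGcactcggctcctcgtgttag
Trbj2-6: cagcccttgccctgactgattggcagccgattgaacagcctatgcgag
Traj58: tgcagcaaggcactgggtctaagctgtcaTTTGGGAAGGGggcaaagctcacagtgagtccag
Traj25: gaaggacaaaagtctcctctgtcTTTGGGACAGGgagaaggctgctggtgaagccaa
Traj39: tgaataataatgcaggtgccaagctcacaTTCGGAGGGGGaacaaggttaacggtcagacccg
Traj7: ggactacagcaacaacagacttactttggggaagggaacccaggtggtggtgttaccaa
Traj61: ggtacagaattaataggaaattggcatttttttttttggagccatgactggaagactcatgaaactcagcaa
Levels are given in FPKM, fragments scaled to the length of the gene and to the counted fragments of the library. On a feature of 50 bases, 1 read was worth 0.848 to 1.44 FPKM in these libraries, so the FPKM of a D or J segment is large for few reads. How the counting treated reads that span a joint or touch more than 1 segment is not given in the sources used here.

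The reads of the segments, 850625 over the 27 libraries, lay mainly on the constant genes and on a few segments. Trbc1 and Trbc2 held 46.5% of them, Trac 19.2%, the 14 Trbj segments 18.5%, the 109 Trav segments 10.3%, the 2 Trbd segments 1.74%, the 23 Trbv segments 1.69% and the 59 Traj segments 1.56%. The 5 Trdv segments held 0.565% and the 5 Trgj and Trgv segments 191 and 15 reads. Among the V segments the P14 segments dominated, Trav14-1 with 95.9% of all Trav reads and Trbv13-3 with 96.2% of all Trbv reads. In the Trav class 51 of 109 segments had no read in any library, against 3 of 23 in the Trbv class and 0 of 59 in the Traj class. Every Traj segment was read, with 63 to 785 reads over the 27 libraries and a median of 195, and 38 of them had a read in every library.

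Before the comparisons, the marker genes of other cells were checked, because the naive lin28Tg libraries stood apart in them. The summed FPKM of the 8 myeloid markers was 224 to 919 in naive lin28Tg libraries and 46.7 to 80.8 in naive WT libraries, and 7 of the 7 tested rose (limma). For this and the counts below, 20.3% of all genes tested were called higher and 12.6% lower. Lyz2 had 2159, 5523 and 14670 reads in the naive lin28Tg libraries, in ascending order, and 344 to 649 in WT. The erythroid sum was 494 to 1994 against 153 to 292, the NK sum 95.2 to 170.0 against 29.8 to 63.6, and that of the gamma delta T cell markers 98.8 to 138 against 14.5 to 34.9. Of the markers tested, 4 of 5 erythroid, 5 of 6 NK and 3 of 4 gamma delta genes rose and 0 fell, while 3 rose and 2 fell of 6 CD4 genes, 2 rose and 1 fell of 4 B cell genes, 0 rose and 2 fell of 5 CD8 genes (Cd3e and Trac, itself one of the segments) and 0 rose and 3 fell of 4 thymocyte genes. Cd4 had 226 to 1747 reads in naive lin28Tg libraries against 58 to 199. The B cell sum overlapped, at 362 to 444 FPKM in naive lin28Tg libraries against 416 to 448 in naive WT libraries. Among its genes, Ms4a1 and Pax5 had at most 19 reads in any library. Cd79b had 634 to 961 reads in naive lin28Tg against 317 to 364 in naive WT, and Igkc 23 to 156 against 0 to 14. Ighm and Cd79a overlapped. Cd8a, the co-receptor of these cells, was at 518, 452 and 488 FPKM in naive lin28Tg cells and at 525, 523 and 509 in naive WT cells, a log2 difference of -0.12 (SE 0.08, limma adjusted p = 0.274). The part of the other cells in the results below was not tested.

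**Figure D1:**
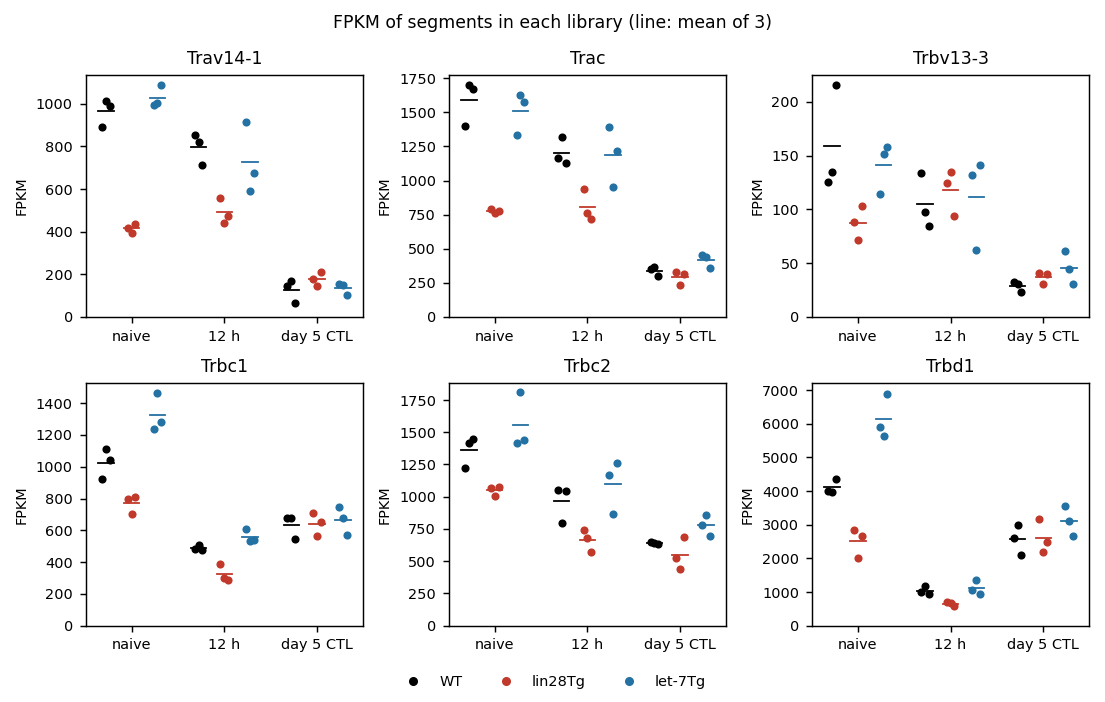
FPKM of selected segments in each of the 27 libraries, by stage and genotype, with each panel starting at 0 and a line at the mean of 3. In naive cells the 3 lin28Tg points of Trav14-1 lie at 395 to 438 FPKM and those of WT at 892 to 1012, while at day 5 the groups overlap.

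Naive lin28Tg cells had lower levels of the P14 alpha chain than naive WT cells. A comparison of lin28Tg with WT asks what the loss of let-7 changes, since the Lin28 protein blocks the maturation of let-7 miRNAs. Trav14-1, the V segment of the alpha chain, was at 892, 1012 and 990.3 FPKM in the WT libraries and at 417, 395 and 438 in the lin28Tg libraries. All lin28Tg values lay below all WT values, and the log2 difference was -1.24 (SE 0.08, limma adjusted p = 2.16e-05). Trac, the constant gene of the alpha chain, was at 1402, 1704 and 1671 FPKM in WT and at 793, 763 and 776 in lin28Tg. The groups did not overlap, with a log2 difference of -1.05 (SE 0.11, limma adjusted p = 0.000173). In bulk RNA, fewer cells of a type and less RNA per cell cannot be told apart.

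The beta chain was lower as well, by less. Trbc1 was at 921, 1112 and 1045 FPKM in naive WT libraries and at 799, 700.1 and 812 in naive lin28Tg libraries. Trbc2 was at 1220.2, 1413 and 1452 FPKM against 1070.3, 1003 and 1078. For both constant genes every lin28Tg library lay below every WT library, with log2 differences of -0.44 (SE 0.11, limma adjusted p = 0.0131) and -0.40 (SE 0.12, limma adjusted p = 0.0295). The call of Trbc1 ended without WT naive replicate 2 (adjusted p = 0.0595). That of Trbc2 ended without WT naive replicate 2 or 3 (0.0980 and 0.104) and without lin28Tg naive replicate 2 or 3 (0.0799 and 0.0686). Trbv13-3, the V segment of the beta chain, was at 126, 135 and 216 FPKM in WT and at 88.1, 71.9 and 103 in lin28Tg. It fell by 0.85 on the log2 scale (SE 0.21, limma adjusted p = 0.0118), and 1 WT library was far above the other 2. Trbv13-2, a relative that the P14 receptor does not use, was at 1.99, 2.00 and 1.78 FPKM in WT and at 0.177, 0.664 and 0.391 in lin28Tg, from 8 to 10 and 1 to 5 reads a library (log2 difference -1.47, SE 0.32, adjusted p = 0.0071).

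Genes of the receptor complex outside the rule did not move as a group. Of the 19 receptor and recombination genes listed, 17 were tested in naive cells, and 3 rose and 3 fell in lin28Tg. Over all genes tested 32.9% were called, 20.3% higher and 12.6% lower. Cd247, the CD3 zeta chain, rose by 1.63 on the log2 scale (SE 0.08, limma adjusted p = 5.61e-06). Cd3e fell by 0.43 (adjusted p = 0.00485), Cd3g fell by 0.39 (adjusted p = 0.0487) and Dntt fell by 0.87 (adjusted p = 0.00634), while Cd3d stood at -0.27 (adjusted p = 0.253). Cd247 was at 138, 146 and 143 FPKM in WT and at 488, 419 and 441 in lin28Tg, the opposite direction to Trac and Trav14-1.

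In all, 60 of the 220 segments passed the filter on low values in naive cells, and of these 26 were lower in lin28Tg and 0 higher. Over all 13262 genes tested, 32.9% were called in either direction, 12.6% lower and 20.3% higher. The median log2 difference was -0.71 over the segments tested and -0.01 over all genes tested, and 57 of the 60 point estimates were below 0. Segments that passed the filter were kept by the groups in which they are high, and the other 160 have no test. Called lower were Trac, both Trbc genes, 3 of 3 tested Trav, 2 of 2 tested Trbv, Trbd1, 6 of 14 Trbj and 11 of 33 tested Traj segments, and 0 of 4 tested Trdv segments. Leaving out lin28Tg naive replicate 1, 2 or 3 gave 26, 21 and 18 calls, and leaving out WT naive replicate 1 gave 17.

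D and J segments of the beta locus were lower as well. Trbd1 was at 3997, 3966 and 4364 FPKM in naive WT and at 2852, 2006 and 2676 in naive lin28Tg, without overlap (log2 difference -0.75, SE 0.16, limma adjusted p = 0.0073). Trbj2-7 was at 263, 295 and 319 FPKM against 198, 152 and 176 (log2 difference -0.76, SE 0.14, adjusted p = 0.00358). Trbj2-6, a pseudogene, was at 104, 105 and 115 FPKM against 42.3, 32.7 and 79.2, where 1 lin28Tg library lay nearer to WT than the other 2. Its log2 difference was -1.19 (SE 0.25, adjusted p = 0.00597). The most read J segment, Trbj1-3, was at 2342, 2784 and 2743 FPKM in WT and at 2091, 1621 and 2338 in lin28Tg, without overlap and without a call (log2 difference -0.42, SE 0.17, adjusted p = 0.0877).

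Single Traj segments differed by more on the log2 scale, from few reads. Traj25 had 12, 6 and 8 reads in naive WT libraries (13.4, 7.46 and 9.93 FPKM) and 1, 2 and 2 reads in naive lin28Tg libraries (0.989, 1.49 and 2.19 FPKM). Its log2 difference was -2.42 (SE 0.30, limma adjusted p = 0.000533). Traj41 had 16, 11 and 8 reads against 4, 5 and 1, with a log2 difference of -2.20 (SE 0.38, adjusted p = 0.00264). Neither segment overlapped between the groups, and both rest on counts where 1 read more or less moves the value.

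Naive let-7Tg cells showed no called difference from WT in any segment. Of the 60 tested, 0 were called by limma, where 0.845% of all genes tested were called, and 11 had an unadjusted p under 0.05. By voom on the whole reads recovered from the FPKM values 0 were called, without an all-gene share given here. Trav14-1 was at 993, 1005 and 1087 FPKM, overlapping with WT (log2 difference 0.05, SE 0.08, adjusted p = 0.833). Trac was at 1331, 1624 and 1578 FPKM, also overlapping (log2 difference -0.12, adjusted p = 0.678). Trbc1 was at 1236, 1466 and 1282 FPKM and Trbd1 at 5907, 5646 and 6889, above all WT libraries, with log2 differences of 0.33 (SE 0.11, adjusted p = 0.201) and 0.53 (SE 0.16, adjusted p = 0.172). Against let-7Tg, which shares the lin28Tg libraries with the comparison above, 39 of the 60 segments were lower in lin28Tg and 0 higher, where 43.4% of all genes were called and 19.2% called lower. All 14 Trbj segments were among the 39, with log2 differences of -2.28 to -0.51. The median over the 60 was -0.82, and -0.00409 over all genes tested.

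**Figure D2:**
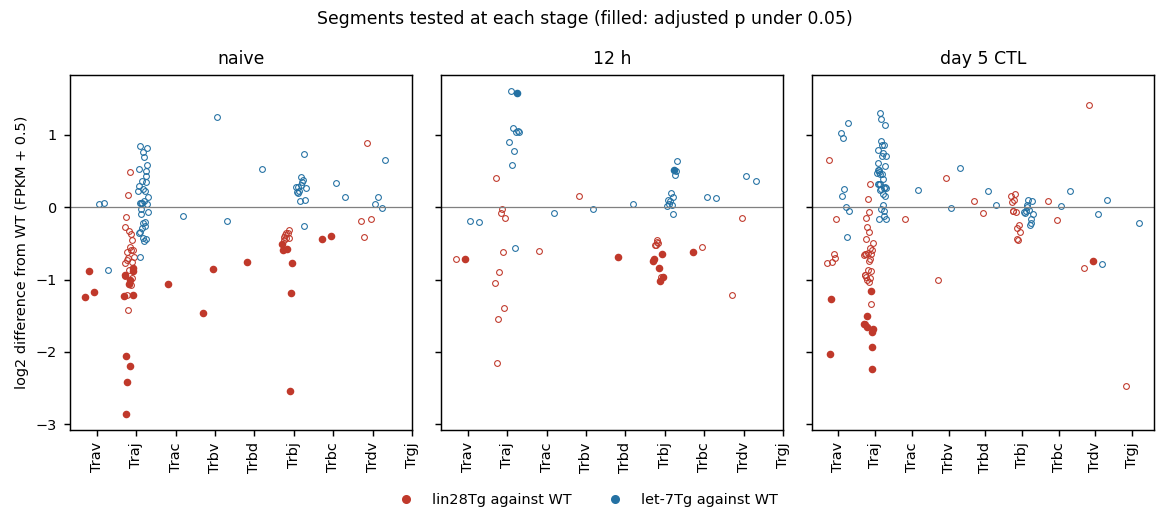
Log2 difference from WT (on FPKM + 0.5) of every segment tested at each stage, by class, for lin28Tg and let-7Tg, with filled points where the limma adjusted p is under 0.05. The lin28Tg points lie mostly below 0 at each stage, with 26, 9 and 11 filled, and among the let-7Tg points 0, 2 and 0 are filled, with 42 of 60, 25 of 31 and 46 of 66 above 0.

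After 12 h of activation, fewer segments had enough reads, and those called between lin28Tg and WT were 8 of the beta locus and Trav14-1. Of 31 segments tested, 9 were lower in lin28Tg and 0 higher, where 8.41% of all 12231 genes tested were called, 2.28% lower and 6.13% higher. Their median log2 difference was -0.65, against -0.01 over all genes tested. The 9 were Trbj1-1, Trbj1-2, Trbj2-1, Trbj2-2, Trbj2-6, Trbj2-7, Trbd1, Trbc1 and Trav14-1. By class, the median log2 difference was -0.68 over 12 Trbj segments, -0.75 over 10 Traj segments, of which 0 were called, -0.72 over 2 Trav segments and -0.58 over both Trbc genes. The count was 5 without lin28Tg 12 h replicate 2 and 5 without lin28Tg 12 h replicate 3. Trbj2-2 was at 114, 91.2 and 91.3 FPKM in WT and at 54.8, 47.5 and 44.6 in lin28Tg, without overlap (log2 difference -1.02, SE 0.11, limma adjusted p = 0.000903). Trbj1-1 was at 623, 602 and 509 FPKM against 387, 351 and 312 (log2 difference -0.74, SE 0.11, adjusted p = 0.00438). Trbc1 was at 483, 509 and 474 FPKM against 389, 299 and 288 (log2 difference -0.61, SE 0.11, adjusted p = 0.0105). This call ended without lin28Tg 12 h replicate 2 or 3 (adjusted p = 0.0623 and 0.0516).

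Several sums of markers of other cells reached higher values in the 12 h lin28Tg libraries too, but not every marker did. The summed FPKM of the gamma delta T cell markers was 13.95 to 20.4 in lin28Tg and 2.78 to 6.11 in WT, and 3 of the 4 tested rose (limma). Over all genes tested at 12 h, 6.13% were called higher. The myeloid sum was 13.8 to 30.1 against 6.63 to 14.5, with 3 of 7 rising, and the NK sum 81.7 to 126 against 50.5 to 63.6, with 1 of 5. The erythroid sum was 83.3 to 693 against 26.1 to 103, with 0 of 5, and the CD4 sum 67.8 to 109 against 39.3 to 72.3, with 1 of 6, and 0 of these genes fell. Il17a, a cytokine gene, had 123 to 272 reads in lin28Tg and 0 to 1 in WT, and Itgam, a myeloid integrin gene, 48 to 61 against 4 to 19. Lyz2 overlapped, at 38 to 86 reads against 13 to 95, and so did Cd4, at 9 to 29 against 7 to 23. Most NK reads lay on Eomes (1437 to 1659 against 780 to 1428) and Klrc1 (835 to 1432 against 327 to 525), while Klrb1c overlapped (26 to 68 against 31 to 34). Most CD4 reads lay on Tnfrsf4 and Ctla4. The study lists Eomes among the genes of lin28Tg CTLs. Such sums do not tell other cells from T cells that express these genes, and the part of either in the 12 h differences was not tested.

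For the alpha chain at 12 h, Trav14-1 was called lower in lin28Tg cells and Trac was not. Trav14-1 was at 854, 823 and 713 FPKM in WT and at 560.1, 440.5 and 472 in lin28Tg (log2 difference -0.72, SE 0.17, limma adjusted p = 0.0298). Its call ended without lin28Tg 12 h replicate 2 or 3 (0.128 and 0.105) and without WT 12 h replicate 1, 2 or 3 (0.110, 0.0730 and 0.0554). Trac was at 1167, 1316 and 1131 FPKM against 937, 761 and 714, without overlap, and missed the threshold (log2 difference -0.60, SE 0.16, adjusted p = 0.0516). Without let-7Tg 12 h replicate 1 or 2, which share the estimate of the spread, it passed (0.0406 and 0.00669). Trbv13-3 overlapped between the genotypes, at 133, 97.6 and 84.2 FPKM in WT and 125, 135 and 94.2 in lin28Tg. Cd8a overlapped as well, at 173, 121 and 139.7 FPKM against 127, 135 and 138 (log2 difference -0.12, adjusted p = 0.708).

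In let-7Tg cells at 12 h, 2 segments rose and 0 fell, where 3.27% of all genes were called, 1.14% higher and 2.13% lower. Traj5 had 3, 5 and 6 reads in WT (3.43, 4.81 and 6.17 FPKM) and 12, 17 and 17 in let-7Tg (12.2, 18.0 and 17.0 FPKM). Its log2 difference was 1.58 (SE 0.20, limma adjusted p = 0.0111), and it stayed called in the 6 fits without 1 library in which it passed the filter. Traj5 passed the filter only through the let-7Tg 12 h libraries, where it is high, so these fits are no separate support. By voom its adjusted p was 0.0512. Trbj2-2 was at 129.8, 152 and 154 FPKM in let-7Tg, above the WT values given above (log2 difference 0.51, SE 0.11, adjusted p = 0.0442). Same-numbered WT and let-7Tg samples deviated together at 12 h (correlations of 0.241, 0.549 and 0.433), and with the replicate number as a block only Traj5 was called (adjusted p = 0.0147), with Trbj2-2 at 0.0589. This call ended without any 1 of the libraries other than let-7Tg 12 h replicate 1, up to 0.163 without WT 12 h replicate 3. Between lin28Tg and let-7Tg, 20 of 31 segments were lower in lin28Tg and 0 higher, where 29.9% of all genes were called and 12.9% called lower. The count was 12 without let-7Tg 12 h replicate 1. Traj5, again tested only through the let-7Tg libraries, was among them, with 3 reads in each lin28Tg library. Its log2 difference was -2.20 (SE 0.20, adjusted p = 7.38e-05).

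In day 5 CTLs Trac, Trbc1, Trbc2, Trav14-1 and Trbv13-3 had no called difference between lin28Tg and WT (limma adjusted p = 0.551, 0.745, 0.544, 0.280 and 0.357), while other segments did. Of 66 segments tested, 11 were lower in lin28Tg than in WT and 0 higher, where 4.33% of all 13016 genes were called and 2.29% called lower. Same-numbered samples deviated together at day 5. With the replicate number as a block 17 were called, 16 of them lower, without an all-gene share given here. The count was 2 to 5 when any of WT day 5 replicates 1, 2 or 3, lin28Tg day 5 replicate 2 or let-7Tg day 5 replicates 1 or 2 was left out, and 13 without lin28Tg day 5 replicate 1. The median log2 difference was -0.64 over the segments tested, and 0.00 over all genes tested.

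The 11 were 8 Traj segments (Traj61, Traj60, Traj59, Traj27, Traj26, Traj7, Traj5 and Traj1), Trav14d-1, Trav15-1-dv6-1 and Trdv5. Traj61, the segment farthest from Trac, had 17, 16 and 30 reads in WT CTLs (12.6, 11.8 and 22.6 FPKM) and 4, 4 and 4 in lin28Tg CTLs (2.88, 2.64 and 2.50 FPKM). Its log2 difference was -2.24 (SE 0.23, limma adjusted p = 0.00275). Trav14d-1 was at 5.66, 5.63 and 8.06 FPKM in WT, at 1.38, 1.26 and 0.837 in lin28Tg and at 10.3, 12.6 and 18.2 in let-7Tg. The genotypes did not overlap, and lin28Tg differed from WT by -2.02 on the log2 scale (SE 0.25, adjusted p = 0.00558). Both calls held in all 9 fits without 1 library. As in naive cells, the filter kept segments by the groups in which they are high. With 4 reads in each lin28Tg library, Traj61 passed it only through the other genotypes. Trdv5, a delta V segment, was at 11.4, 13.2 and 12.7 FPKM in WT and at 7.83, 5.50 and 7.70 in lin28Tg (log2 difference -0.74, SE 0.16, adjusted p = 0.0373). Its call held only without lin28Tg day 5 replicate 1 or let-7Tg day 5 replicate 3, and the adjusted p reached 0.114 without lin28Tg day 5 replicate 2.

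Trac was at 349, 367 and 299 FPKM in WT CTLs and at 331, 234 and 311 in lin28Tg CTLs, with overlap (log2 difference -0.16, SE 0.13, adjusted p = 0.551). Trav14-1 was at 144, 167 and 64.8 FPKM against 179, 145 and 211 (log2 difference 0.66, SE 0.31, adjusted p = 0.280). Trbc1 overlapped at 678, 678 and 544 FPKM against 711, 562 and 654 (log2 difference 0.08, adjusted p = 0.745). Dntt was at 8.64, 4.83 and 10.9 FPKM in WT CTLs and at 0.842, 0.339 and 0.623 in lin28Tg CTLs (log2 difference -2.90, adjusted p = 0.00292), in the direction of the Traj segments. Cd8a was at 174, 184 and 233 FPKM in WT CTLs and at 129, 142 and 132 in lin28Tg CTLs (log2 difference -0.48, adjusted p = 0.0842). The myeloid sum was 25.6 to 103 FPKM in lin28Tg CTLs and 2.41 to 7.63 in WT CTLs. Its reads lay mainly on Fcer1g, with 220 to 1111 against 21 to 71, and Itgam, with 71 to 203 against 10 to 40. Lyz2, Adgre1 and Csf1r had at most 2 reads in any CTL library. Of the 8 myeloid markers 2 were tested and 2 rose, where 2.04% of all genes were called higher. The NK sum was 190 to 325 FPKM in lin28Tg CTLs against 75.1 to 113 in WT, with 1 of 4 tested called higher. The gamma delta sum was 6.92 to 8.59 against 1.70 to 3.26, with 1 of 3. The B cell sum was lower, at 31.9 to 142 against 190 to 241. So was the CD8 sum, at 1050 to 1283 against 1372 to 1464. The CD4, erythroid and thymocyte sums overlapped. The part of other cells at day 5 was not tested.

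In let-7Tg CTLs 0 of the 66 segments were called against WT by limma, with 8 at an unadjusted p under 0.05. By limma 0.907% of all genes were called, 0.561% higher and 0.346% lower. By voom on the recovered reads 0 segments were called and with the replicate block 1, without an all-gene share given here for either. Against let-7Tg CTLs, 22 segments were lower and 1 higher in lin28Tg, where 21.4% of all genes were called and 10.5% called lower. Of the 22, 17 were Traj, 4 Trav and 1 Trdv, and none was a Trbj, Trbd or constant gene, although with the replicate block Trac was called too (log2 difference -0.40, adjusted p = 0.0384). The count was 12 without let-7Tg day 5 replicate 1. The segment that was higher, Trdv4, was at 3.01, 10.2 and 3.66 FPKM in lin28Tg and at 1.18, 1.28 and 0.147 in let-7Tg. Its call (log2 difference 2.20, SE 0.60, adjusted p = 0.0280) ended without lin28Tg day 5 replicate 2 or 3 (0.0981 and 0.0581) and without let-7Tg day 5 replicate 1 or 3 (0.0543 and 0.0716).

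After 12 h of activation many segments of WT cells were lower, and Trac had no call. The stages came in separate tables, and stage and sequencing order cannot be told apart. This holds for all comparisons between stages and for the interactions below. In WT cells 84 segments were tested across stages, and after 12 h 40 were lower and 2 higher than in naive cells, where 70.9% of all 14449 genes were called, 36.3% lower and 34.6% higher. The median log2 difference was -0.85 over the segments and -0.05 over all genes. Trac, at 1167, 1316 and 1131 FPKM, was not called (log2 difference -0.19, against 1402, 1704 and 1671 in naive cells). Trbd1 fell from 3997, 3966 and 4364 FPKM to 1005, 1168 and 946 (log2 difference -1.78, SE 0.15, limma adjusted p = 4.7e-10), and 11 of 14 Trbj segments and Trbc1 fell with it. The log2 differences of the Trbj segments were -1.57 to -0.17. Trbc2 did not pass the test, so that the FPKM ratio of Trbc2 to Trbc1 was 1.27 to 1.39 in naive WT cells and 1.56 to 2.21 at 12 h.

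Trav14d-1 and several delta V segments had few reads left at 12 h. Trav14d-1 fell from 14.98, 14.3 and 13.5 FPKM in naive WT libraries to 0.940, 0.475 and 0.676 (log2 difference -3.48, SE 0.30, adjusted p = 5.48e-10). Trdv2-2, a delta V segment, fell from 38.3, 34.7 and 25.0 FPKM to 2.88, 1.38 and 2.40 (log2 difference -3.44, SE 0.33, adjusted p = 2.92e-09). Trdv2-1 had 19, 16 and 19 reads in naive WT libraries and 0, 1 and 0 at 12 h (log2 difference -2.79, SE 0.19, adjusted p = 1.09e-11). Dntt, the transferase gene, was at 8.16, 14.1 and 11.3 FPKM in naive WT cells and at 0.203, 0.370 and 0.213 at 12 h. In each of these genes no 12 h library overlapped with a naive one.

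The 2 segments that rose in WT cells at 12 h were Trav13-3 and Traj39. Trav13-3 had 0 reads in all 9 naive libraries and 8, 12 and 16 reads in the 12 h WT libraries, at least 3.61-fold higher than a floor of 3 reads per library. It had 10, 5 and 4 reads in lin28Tg and 6, 11 and 15 in let-7Tg at 12 h, and 1 read in all 9 CTL libraries together. Trav13-3 thus passed the filter only through 12 h libraries, where it is high. Trav13d-3, a relative of Trav13-3 chosen after its values were seen, followed the same course. It had 0 reads in the 9 naive and the 9 CTL libraries and 5, 10 and 8 reads in WT at 12 h, at least 2.29-fold higher than the floor. Traj39 was at 16.1, 4.50 and 6.74 FPKM in naive WT libraries and at 27.01, 14.2 and 14.2 at 12 h, with overlap (log2 difference 1.30, adjusted p = 0.0194, 0.119 and 0.0587 without WT naive replicate 2 or 3, and 0.0917 without WT 12 h replicate 1).

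In day 5 WT CTLs the P14 chains themselves were lower than in naive cells, in a comparison that shares the naive libraries with the one above. Of the 84 segments tested, 24 were lower and 3 higher, where 65.3% of all genes were called, 32.5% lower and 32.8% higher. Trac was at 349, 367 and 299 FPKM in CTLs (log2 difference -2.13, SE 0.15, limma adjusted p = 3.02e-11). Trav14-1 was at 144, 167 and 64.8 FPKM (log2 difference -2.95, SE 0.23, adjusted p = 2.35e-10) and Trbv13-3 at 32.8, 30.4 and 23.3 (log2 difference -2.31, SE 0.29, adjusted p = 3.31e-07). No CTL library overlapped with a naive WT library in these 3 genes. The beta constant genes fell by less, Trbc2 by 0.98 and Trbc1 by 0.60 on the log2 scale (adjusted p = 2.77e-05 and 0.000172). Cd8a in WT CTLs, given above, was also below its naive values.

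Trgj1, Trav15-2-dv6-2 and Trav3-3 were the 3 segments that rose at day 5. Trgj1, a gamma J segment, had 0 reads in all naive and 12 h WT libraries and 13, 16 and 13 reads in WT CTLs, at least 3.53-fold higher than the floor of 3 reads per library. Trgj1 had 13, 15 and 13 reads in let-7Tg CTLs, and 3, 9 and 0 in lin28Tg CTLs. It passed the filter only through the WT and let-7Tg CTL libraries, where it is high. Trav15-2-dv6-2 rose from 1.15, 0.917 and 1.47 FPKM to 4.98, 4.95 and 3.79 (log2 difference 1.67, adjusted p = 0.00124), and Trav3-3 from 0.549, 2.04 and 1.43 to 5.07, 3.98 and 2.50 (log2 difference 1.36, adjusted p = 0.00125). Trbv15 had 0 reads in all 18 naive and 12 h libraries, and in CTLs 4, 2 and 3 reads in WT, 7, 24 and 9 in lin28Tg and 1, 0 and 0 in let-7Tg. The part of the irradiated splenocytes in these reads was not tested.

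The other genotypes were compared with their own naive libraries in the same model. In lin28Tg at 12 h, 38 segments were lower and 5 higher, where 73.6% of all genes were called, 38.6% lower and 35.0% higher. In let-7Tg at 12 h, 29 were lower and 1 higher, where 69.4% were called, 35.3% lower and 34.1% higher. At day 5 the counts were 22 lower and 5 higher in lin28Tg (68.3% called, 34.0% lower and 34.2% higher), and 23 lower and 4 higher in let-7Tg (62.5% called, 31.1% lower and 31.4% higher). Whether the difference between lin28Tg and WT itself changed between stages was tested as an interaction. At 12 h against naive 1 segment was called, with a positive value, and 0 with a negative one, where 7.89% of all genes were called, 2.34% positive and 5.55% negative. At day 5 against naive 10 segments were positive and 1 negative, where 15.1% of all genes were called, 3.86% positive and 11.2% negative. For let-7Tg 0 were called by limma at either stage, where 0.0761% and 0.457% of all genes were called.

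**Figure D3:**
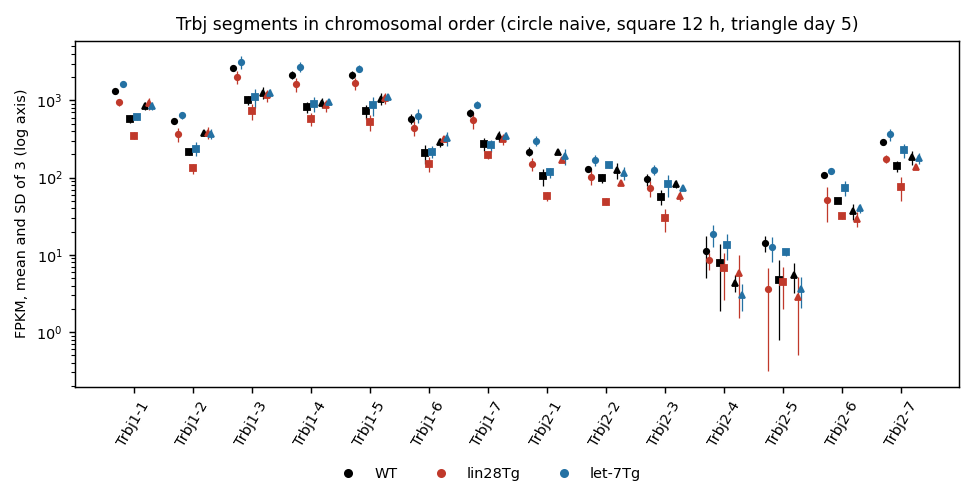
FPKM of the 14 Trbj segments in chromosomal order, as mean and SD of 3 libraries on a log axis, by genotype (color) and stage (symbol). Trbj1-1, Trbj1-3, Trbj1-4 and Trbj1-5 lie above all Trbj2 segments in every group, and Trbj2-4 and Trbj2-5 are the lowest.

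Within the beta locus, the Trbj1 segments together had more reads than the Trbj2 segments in every library. On chromosome 6 of GRCm38, Trbd1 (41533201 to 41533212) is followed by the Trbj1 segments and Trbc1 (41538218 to 41539881), and Trbd2 by the Trbj2 segments and Trbc2 (41546730 to 41548352). The 2 clusters hold 7 Trbj segments each, of 45 to 54 bases, and the Trbj1 segments had 5.15 to 15.1 reads for each Trbj2 read in the 27 libraries. This ratio was 11.6 to 12.4 in naive WT cells, 7.75 to 10.0 at 12 h and 7.85 to 8.11 at day 5. In lin28Tg it was 13.0 to 15.1, 8.90 to 13.0 and 9.34 to 12.4, and in let-7Tg 10.7 to 11.9, 5.15 to 7.498 and 7.75 to 9.82. Trbj1-3, Trbj1-5 and Trbj1-4 were the most read, with 38778, 29731 and 29409 reads over all libraries, and Trbj2-4 and Trbj2-5 the least, with 190 and 150. Trbd1 had 14649 reads and Trbd2 181, although their sequences, shown above, differ little in length. All 3 of the most read J segments carry the motif in capitals, and so do Trbj2-4 and Trbj2-5.

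**Figure D4:**
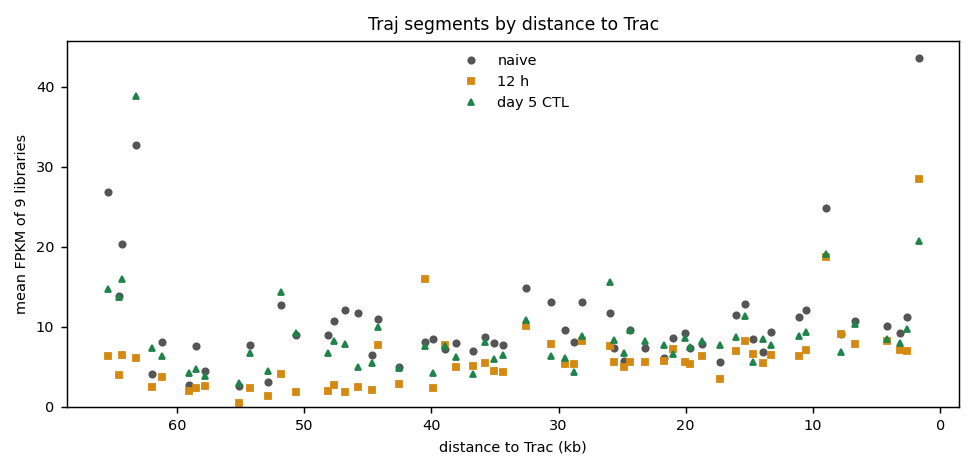
Mean FPKM over the 9 libraries of a stage for each of the 59 Traj segments, by distance to Trac in kb with the farthest on the left. Circles are naive, squares 12 h and triangles day 5, and at 12 h most segments far from Trac lie below the others, with Traj61, 65.4 kb away, at 6.36 FPKM against 26.8 in naive libraries.

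The Traj segments lie 1.68 to 65.4 kb upstream of Trac on chromosome 14, and the share of their reads on the segments farthest from Trac was lower at 12 h. The 19 segments farthest from Trac, Traj61 to Traj42, held 31.6% to 37.5% of all Traj reads in naive WT libraries, 18.8% to 20.8% at 12 h and 31.2% to 43.4% at day 5. In lin28Tg the shares were 34.7% to 37.3%, 15.2% to 19.3% and 31.9% to 36.3%, and in let-7Tg 32.7% to 43.5%, 13.4% to 17.9% and 35.0% to 40.6%. In each genotype the 12 h libraries lay below all others, with no overlap. The 19 segments nearest to Trac, Traj20 to Traj1, held 30.3% to 38.1% in naive WT, 35.5% to 43.5% at 12 h and 28.1% to 39.8% at day 5. In lin28Tg these shares were 27.97% to 36.8%, 33.3% to 43.9% and 28.6% to 36.5%, and in let-7Tg 27.8% to 36.3%, 40.3% to 53.1% and 28.3% to 32.5%. The nearest share at 12 h overlapped with the other stages in WT and lin28Tg and lay above them in let-7Tg. Traj58, the most read segment, was at 27.2, 45.0 and 20.2 FPKM in naive WT cells, at 5.63, 3.79 and 8.097 at 12 h and at 34.7, 48.9 and 41.3 at day 5. These shares rest on 171 to 1064 Traj reads a library, and no test was planned for them.

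**Figure D5:**
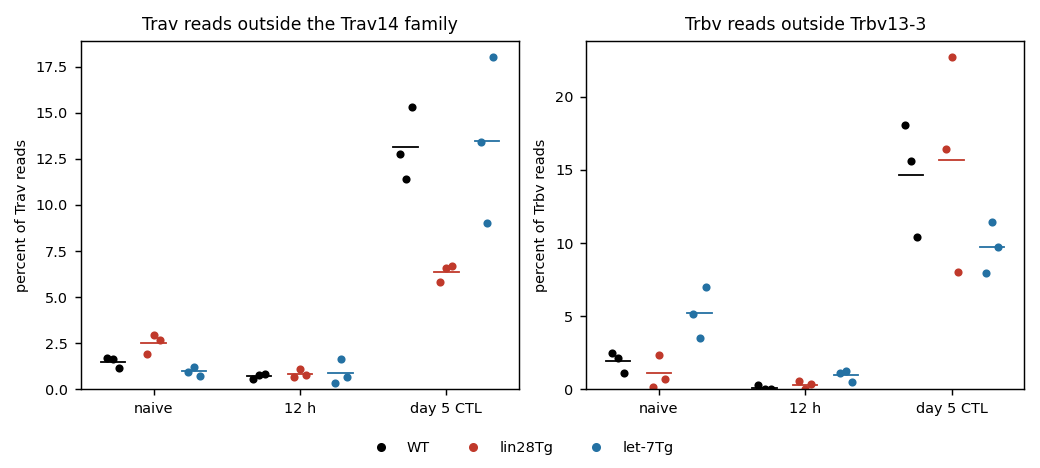
Percent of Trav reads outside the Trav14 family and of Trbv reads outside Trbv13-3, in each of the 27 libraries, by stage and genotype. At day 5 the Trav share is 5.82% to 6.67% in lin28Tg and at least 8.998% in the other genotypes, while at 12 h it is 0.362% to 1.66%.

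The share of V reads that did not lie on the P14 segments was small in naive and activated cells and larger in CTLs. Outside the Trav14 family lay 1.69%, 1.65% and 1.16% of Trav reads in naive WT libraries, 1.89%, 2.94% and 2.69% in lin28Tg and 0.964%, 1.20% and 0.739% in let-7Tg. These shares rest on 2641 to 5703 Trav reads a library, and the exact 95% interval (Clopper-Pearson, counting error only) of the first WT library was 1.36% to 2.08%. The lin28Tg libraries lay above all others. The genotypes differed by an exact permutation test on the F ratio (one-sided, 280 divisions, p = 0.00714, adjusted over 6 shares 0.0321, smallest p possible 0.00357), with an adjusted p of 0.0911 without let-7Tg naive replicate 1 or 3 and 0.075 without WT naive replicate 1 or 2. Trav reads outside the family numbered 53, 105 and 71 in naive lin28Tg libraries, against 89, 88 and 60 in WT. They numbered 55, 63 and 41 in let-7Tg, and all genotypes overlapped. All Trav reads numbered 2797, 3577 and 2641 in lin28Tg and 5257, 5336 and 5190 in WT. Counted reads were more in lin28Tg (16037739 to 23591069) than in WT (14120577 to 15761667). The higher share thus went with fewer reads of the P14 segment Trav14-1, while reads outside did not separate from WT. The markers of other cells, given above, were higher in these lin28Tg libraries.

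Outside Trbv13-3 lay 2.46%, 2.11% and 1.14% of Trbv reads in naive WT libraries, 0.188%, 2.37% and 0.707% in lin28Tg and 5.18%, 3.48% and 6.98% in let-7Tg, from 532 to 1049 Trbv reads a library. The let-7Tg libraries lay above all others, and the genotypes differed (exact permutation p = 0.0107, adjusted 0.0321). Without WT naive replicate 1, 2 or 3 or lin28Tg naive replicate 1 or 3 the adjusted p was 0.0911, without lin28Tg naive replicate 2 it was 0.0536, and without let-7Tg naive replicate 3 it was 0.0643. Trbv13-2 made up most of these reads in let-7Tg, with 18, 19 and 44 of the 33, 26 and 56 reads outside. The Trav and Trbv shares thus differed in which genotype was highest.

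At 12 h 0.362% to 1.66% of Trav reads lay outside, with all genotypes overlapping (exact permutation, adjusted p = 0.936), and 0% to 1.22% of Trbv reads (adjusted p = 0.0911, and 0.0357 without let-7Tg 12 h replicate 3). In 3 of the 9 libraries no Trbv read lay outside, 0 of 556 and 0 of 449 in WT and 0 of 777 in lin28Tg, which allows shares of up to 0.661%, 0.818% and 0.474% (exact 95% interval). At day 5 the Trav share was 12.8%, 11.4% and 15.3% in WT, 5.82%, 6.56% and 6.67% in lin28Tg and 13.4%, 8.998% and 18.0% in let-7Tg. The lin28Tg libraries lay below all others, and the test missed the threshold (exact permutation, adjusted p = 0.0911, and 0.0286 without let-7Tg day 5 replicate 2). The Trbv share at day 5 overlapped between genotypes, at 18.0%, 15.6% and 10.4% in WT, 16.4%, 22.7% and 8.02% in lin28Tg and 7.92%, 11.5% and 9.73% in let-7Tg (adjusted p = 0.39). The reads on the P14 V segments were at their lowest in CTLs, 430 to 1688 for Trav14-1 and 146 to 407 for Trbv13-3, and a share outside rises when they fall. In WT libraries the Trav reads outside numbered 89, 88 and 60 in naive cells and 150, 154 and 89 in CTLs.

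Rag1 and Rag2 were low throughout, unlike other recombination genes listed. Rag1 had 0 to 12 reads in any library. Rag2 had 1 to 25 reads, or 0.0248 to 0.674 FPKM, and the tables do not tell reads on the part left from reads on the whole gene. Ranges of Rag2 were 12 to 15 reads in naive WT, 6 to 20 in naive lin28Tg and 22 to 25 in naive let-7Tg libraries. Of the gamma segments, Trgj1 had 118 reads, Trgj2 41, Trgj4 32 and Trgv2 15 over the 27 libraries, and Trgj3 had 0. Of the delta segments, Trdv2-2 had 2174 reads, Trdv5 2002, Trdv4 415, Trdv2-1 198 and Trdv1 16. Trdv4 was at 3.86, 2.26 and 1.03 FPKM in naive WT libraries, at 2.12, 7.49 and 5.24 in naive lin28Tg libraries and at 2.43, 2.27 and 1.88 in naive let-7Tg libraries, with overlap. Of the 14 other gamma and delta genes listed, which the rule does not take (Tcrg, Trdd and Trdj symbols), 7 were tested in naive cells, of which 3 rose and 0 fell in lin28Tg, where 32.9% of all genes were called. At 12 h 1 of 4 rose, where 8.41% were called, and at day 5 0 of 6 were called by limma, where 4.33% were.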

How the data were processed

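Each of the 27 libraries was a biological replicate per the study's methods, grouped by genotype and stage from the labels, with 3 per group. The submitters' processing notes name Bowtie2 2.0.6, TopHat2 2.0.9, HTSeq 0.6.1 and GRCm38. The annotation release and HTSeq's overlap and strand settings are not given in the sources used here. The authors deposited 3 tables, 1 per stage, with FPKM per gene and library. The group means of normalized read counts that they deposited as a signal were used only to recover gene lengths, and their log2 fold change and p-value columns hold their own comparisons and were not used. All 462839 FPKM values above 0 came out as whole reads within 0.01 read.

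FPKM values were scaled between libraries by trimmed means (30% of ratios and 5% of levels trimmed), and log2(FPKM + 0.5) was fitted with limma 3.58.1 (trend) in R 4.3.3, so a fold change of a low gene is understated. Genotypes were compared within a stage on its 9 libraries, and stages and their interaction with genotype on all 27. Genes needed the equivalent of 10 reads in 3 libraries and 15 reads in all. P-values were adjusted over all genes tested (Benjamini-Hochberg, 0.05). Shares of V reads were tested by exact permutation over libraries, and their intervals (95%, exact) and the floor of 3 reads cover counting error only. The fits were tested on simulated data. Alternatives were a replicate block, no scaling, other pseudocounts, no filter, voom on the recovered reads, only the libraries compared, and leaving out each library.

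Same-numbered samples at day 5 deviated together, with correlations of 0.245 to 0.716 over 9 pairs, and so did those of WT and let-7Tg at 12 h (0.241 to 0.549 over 3 pairs), so blocked values stand beside the genotype comparisons there that they change. The interactions were fitted without a block, voom or left-out libraries. The members and all lists were chosen with earlier results of these data known. Named were the constant genes, the Trav14 and Trbv13 families, the 5 most read segments of each class and up to 5 called segments in each direction of each comparison. The lists were receptor and recombination genes, relatives among gamma and delta genes, and markers of CD8, CD4 and gamma delta T cells, B, myeloid, NK and erythroid cells and thymocytes. No column of another series was found. Of the 220 segments, 210 were found in GENCODE M21, the source of positions and sequences. Segments with Trdc or Trgc symbols were not analysed here.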

Additional observations from a re-analysis of the deposited data

Results flagged for a closer look

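The difference between lin28Tg and WT was tested for a change between stages, as an interaction in the model of all 27 libraries (limma). Of the 84 segments tested, 1 differed at 12 h from naive cells, where 7.89% of all genes did, and 11 differed at day 5, where 15.1% of all genes did. All comparisons share the naive libraries, so the values are not independent.

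For the P14 alpha chain the difference at day 5 minus that in naive cells was 1.90 for Trav14-1 (SE 0.33, adjusted p = 0.000381) and 0.90 for Trac (SE 0.21, adjusted p = 0.00501), so the lower level of naive lin28Tg cells was not seen in CTLs. In the beta chain the same value was 1.27 for Trbv13-3 (SE 0.41, adjusted p = 0.0386), 0.52 for Trbc1 (SE 0.17, adjusted p = 0.0421) and 0.84 for Trbd1 (SE 0.21, adjusted p = 0.00905). Among the J segments it was 0.66 for Trbj1-1 (adjusted p = 0.0123), 0.68 for Trbj1-2 (adjusted p = 0.0195) and 0.95 for Trbj2-6 (adjusted p = 0.0393). Traj25 changed by 2.95 at 12 h (SE 0.53, adjusted p = 0.00161) and by 2.12 at day 5 (SE 0.53, adjusted p = 0.00767), and Traj41 by 2.51 at day 5 (SE 0.61, adjusted p = 0.00644), both from the few reads given above. Trgj1 went the other way, by -5.43 (SE 1.04, adjusted p = 0.00104). It had 5, 12 and 1 reads in naive lin28Tg libraries and 0 in naive WT libraries, and 3, 9 and 0 against 13, 16 and 13 in CTLs. Trgj1 passed the filter only through the WT and let-7Tg CTL libraries, where it is high. Its naive WT value rests on the 0.5 FPKM added to every value, so the p-value is no separate support. The sums of myeloid, NK and erythroid markers, which were higher in naive lin28Tg libraries, also changed between stages, and their part in these differences was not tested.

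For let-7Tg the same test called 0 segments at 12 h and 0 at day 5 by limma (8 and 7 at an unadjusted p under 0.05), where 0.0761% and 0.457% of all genes were called. Neither voom, the replicate block nor leaving out a library was run on the interactions.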

How the results depend on the processing

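Over 48 named results and 684 alternative values, 651 kept direction and side of the threshold, 33 kept direction but no longer passed, and 0 reversed. Without scaling, 1 segment was called for let-7Tg against WT in naive cells instead of 0. For let-7Tg against WT at 12 h (2 called), the replicate block gave 1, no filter 1, only the 6 libraries compared 1 and voom 0. For lin28Tg against WT at day 5 (11 called), the block gave 17, no filter 6, voom 4 and only the 6 libraries compared 3. The block gave 1 for let-7Tg against WT at day 5. The cause was not tested. For counts with the block, voom and the other alternatives, the share over all genes called is not given here. Same-numbered samples correlated from -0.246 to 0.470 in naive cells and from -0.257 to 0.549 at 12 h. Those of WT and let-7Tg were positive at both stages, at 0.0596 to 0.470 in naive cells and 0.241 to 0.549 at 12 h. Different-numbered naive WT and let-7Tg samples ranged from -0.401 to 0.290, so whether naive samples share more than a number is not settled. With the block 31 segments were called for lin28Tg against WT in naive cells and 11 at 12 h. Leaving out each library gave 17 to 26, 0 to 1 and 26 to 39 calls in naive cells (lin28Tg against WT, let-7Tg against WT, lin28Tg against let-7Tg), 5 to 12, 0 to 2 and 12 to 23 at 12 h, 2 to 13, 0 to 1 and 12 to 26 at day 5, and 36 to 39 and 22 to 27 in WT at 12 h and day 5 against naive. The adjusted p of the share tests ranged over 0.0321 to 0.0911, 0.325 to 0.989 and 0.0286 to 0.230 for Trav and over 0.0321 to 0.0911, 0.0357 to 0.166 and 0.0986 to 0.677 for Trbv, in naive cells, at 12 h and at day 5. Depth limits the segments: 102 of 220 had under 15 reads over the 27 libraries.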
